A study of Homo sapiens with 2 samples.

Results

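The insulin-like growth factor (IGF) axis was examined here as 10 gene symbols: the ligand IGF2, its imprinted neighbour H19, the receptors IGF1R, IGF2R and INSR, and the binding proteins IGFBP1, IGFBP2, IGFBP3, IGFBP4 and IGFBP6. The symbols were matched to the names in the deposited count table and found 11 of its 58735 genes, because IGF2 is listed under 2 identifiers. Both libraries came from PLC8024, a name used by the study for PLC/PRF/5, the Alexander line of human hepatoma cells, grown in high-glucose medium with serum. One library was labelled MAEL WT, the wild type, and the other MAEL KO, in which MAEL had been targeted with an sgRNA and Cas9. By the study's methods, knockout cells were sorted for a fluorescent plasmid marker and seeded to grow single clones, so clone and knockout cannot be told apart. There was 1 library a group, so no difference has a replicate check and no test between conditions was possible.

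In this axis, IGF1 and IGF2 signal through IGF1R, a receptor tyrosine kinase that is a close relative of the insulin receptor INSR, and on to the PI3K-AKT kinases. IGF2R does not signal in this way but carries IGF2 to the lysosome. The IGFBPs are secreted proteins that bind IGFs and set how much is free, and the liver is the main source of circulating IGF1 and of IGFBP1, whose gene insulin represses. H19 and IGF2 are expressed from opposite parental alleles, and re-expression of fetal IGF2 is known in liver cancer.

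Total counts were 19904136 in MAEL WT and 20833332 in MAEL KO, at which 3 counts correspond to 0.151 and 0.144 CPM (counts scaled to the library total). MAEL itself had 1 and 0 counts, both under the floor of 3 counts, so the labels could not be checked by the targeted gene. Hepatocyte markers were present and differed between the libraries. The summed level of 13 such genes was 1710 FPKM (the read count divided by gene length and library size) in MAEL WT and 5037 in MAEL KO. Of these 12 were tested and all 12 were higher in MAEL KO, though 1 of them turned to -0.04 when scaled by total counts. Of the 12, 4 were past a log2 fold change of 2, beside 2.16% of all 17887 tested genes, of which 8593 were above 0. Those 4 were ALB, the albumin gene (59 to 8550 counts, 7.36), AFP, the fetal counterpart of albumin (26 to 1351, 5.85), APOA1 (419 to 4400, 3.60) and TTR (20 to 155, 3.10). The most counted were SERPINA1 (78162 and 232891, 1.79), APOB (80091 and 135805, 0.97) and TF (65436 and 72635, 0.36), and CYP3A4, named after its values were seen, had 0 and 2 counts. For 13 markers of other cell types the sums were 7.68 and 8.04 FPKM. CD3E and ACTA2 had 0 counts in both libraries. Of the 8 tested, 3 were lower past a log2 fold change of -2, beside 5.64% of all tested genes. These 3 were the biliary keratins KRT7 (60 to 1 count) and KRT19 (13 to 1 count) and COL1A1 (92 to 11 counts). Of the 8, 4 were above 0, which were COL3A1 (54 and 136 counts, 1.52), CDH5 (4 and 15, 1.86), PECAM1 (348 and 392, 0.38) and VIM (343 and 368, 0.31), some of them named after their values were seen. The part of these shifts in the values below was not tested. In bulk RNA, fewer cells with a transcript and less of it in each cell cannot be told apart.

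The receptors are shown first by the sequence upstream of their start sites. RefSeq windows on GRCh38.p14 were found for 8 of the 10 symbols, all but IGF2 and IGFBP1. The lines give the 250 bases before the start, 5′ to 3′ on the gene's strand, for IGF1R (chr15:98648289-98648538, plus strand), IGF2R (chr6:159968832-159969081, plus strand) and INSR (chr19:7294415-7294664, minus strand). Capitals mark the letters ACGTG or GCGTG on either strand, the core read by hypoxia-inducible and other basic helix-loop-helix factors.
IGF1R: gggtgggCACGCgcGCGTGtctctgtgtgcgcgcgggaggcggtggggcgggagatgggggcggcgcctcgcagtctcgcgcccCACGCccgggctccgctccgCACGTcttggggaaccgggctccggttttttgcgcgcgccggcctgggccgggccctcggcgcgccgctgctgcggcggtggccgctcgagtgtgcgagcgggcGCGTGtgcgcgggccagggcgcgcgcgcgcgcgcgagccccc
IGF2R: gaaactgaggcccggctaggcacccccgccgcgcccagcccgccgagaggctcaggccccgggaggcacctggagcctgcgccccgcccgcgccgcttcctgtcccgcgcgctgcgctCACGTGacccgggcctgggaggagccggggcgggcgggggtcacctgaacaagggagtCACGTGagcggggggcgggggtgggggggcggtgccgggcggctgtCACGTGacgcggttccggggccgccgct
INSR: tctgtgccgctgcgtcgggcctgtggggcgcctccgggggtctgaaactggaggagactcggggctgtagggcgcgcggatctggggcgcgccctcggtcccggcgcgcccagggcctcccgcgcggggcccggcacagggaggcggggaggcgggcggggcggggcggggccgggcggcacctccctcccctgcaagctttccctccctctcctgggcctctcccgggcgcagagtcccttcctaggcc
All 3 stretches were rich in G and C, at 81.2%, 79.2% and 78.4%. IGF1R held ACGTG once and GCGTG 4 times, while 21.4% and 36.5% of all 35114 windows of 300 bases held each of these at least once. In IGF2R the capitals form CACGTG, which reads the same on both strands and so gives ACGTG on each, at 3 places. CACGTG was looked for after the sequence had been seen: 7.26% of windows held it, and 33 windows (0.094%) held it 3 or more times. Neither core was found in the INSR window, nor in those of H19, IGFBP4 and IGFBP6. IGFBP3 held GCGTG 3 times, and of 3 IGFBP2 windows 1 held GCGTG and another ACGTG, once each. Any link between these letters and the fold changes was not tested. The letters searched for FOXO (TGTTTAC and TGTTTNC), HNF1 (GTTAATNA) and CEBP (TTGCNNAA) factors, on both strands, were found in none of the 3 receptor windows. The share of all windows with them was 3.42%, 18.0%, 2.43% and 10.5%. TGTTTAC was found once, in the IGFBP6 window. A match is not a binding site, and binding was not measured in these libraries.

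Of the 10 symbols, 8 were tested, which here means that they had at least 10 counts in a library and were compared by fold. By log2 fold change of MAEL KO over MAEL WT, 1 of them was above 2 and 0 were below -2. Over all 17887 tested genes 2.16% were above 2 and 5.64% below -2, 7.80% in all, and higher genes made up 27.7% of those past the threshold, or 17.0% when scaled by total counts. Of the 8 members, 4 were above 0 and 4 below, and of all 17887 tested genes 8593 were above 0 and 9294 below. The median of the 8 was -0.08 and that of all tested genes -0.04. At a threshold of 1, H19 was higher and IGFBP1 lower, beside 10.2% above 1 and 16.5% below -1 over all tested genes. IGF2 and IGFBP6 had too few counts to be tested. Per length, the order from the top in MAEL WT was IGFBP1, IGF2R, IGFBP3, IGFBP4, INSR and IGF1R, and in MAEL KO IGFBP3 and IGF2R stood next to each other the other way round, at 36.8 and 35.2 FPKM.

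**Figure D1:**
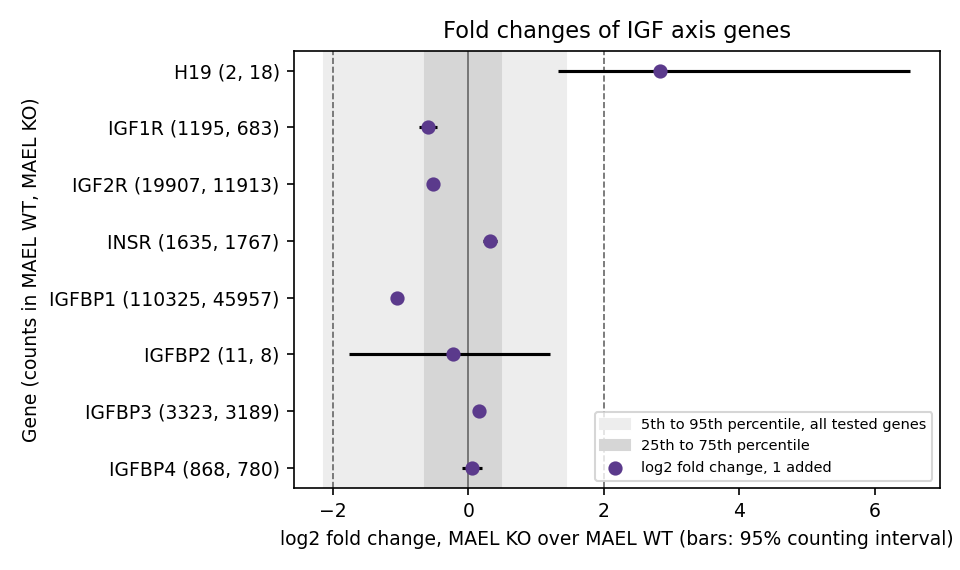
Log2 fold change of MAEL KO over MAEL WT for the 8 tested IGF axis genes, with the counts in both libraries beside each name, 95% counting intervals as bars, grey bands for the spread of all 17887 tested genes and dashed lines at 2 and -2. IGFBP1 at -1.05, IGF1R at -0.60 and IGF2R at -0.53 lie to the left of 0, and H19 lies past 2 with an interval that begins at 1.32.

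The IGF axis in these cells was dominated by IGFBP1, which was the member most abundant in both libraries and was lower in MAEL KO. IGFBP1 (GRCh38 chromosome 7, plus strand, bases 45888357 to 45893668) had 110325 counts in MAEL WT and 45957 in MAEL KO. After normalization this was 102841 against 49564, a ratio of 0.482 and a log2 change of -1.05 with a 95% counting interval of -1.07 to -1.04. The interval covers counting error alone, because there was 1 library a group. The reads carry no molecular identifiers, so copies of 1 molecule could not be told apart and the interval may be too narrow. IGFBP1 took 0.554% of all counts in MAEL WT and 0.221% in MAEL KO, and by FPKM it ranked 8 among all genes in MAEL WT and 24 in MAEL KO. Among all tested genes, 15.5% had a lower fold change. Among the 292 tested genes with at least 10000 counts in a library, 21 (7.19%) were below -1, and IGFBP1 was one of them.

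**Figure D2:**
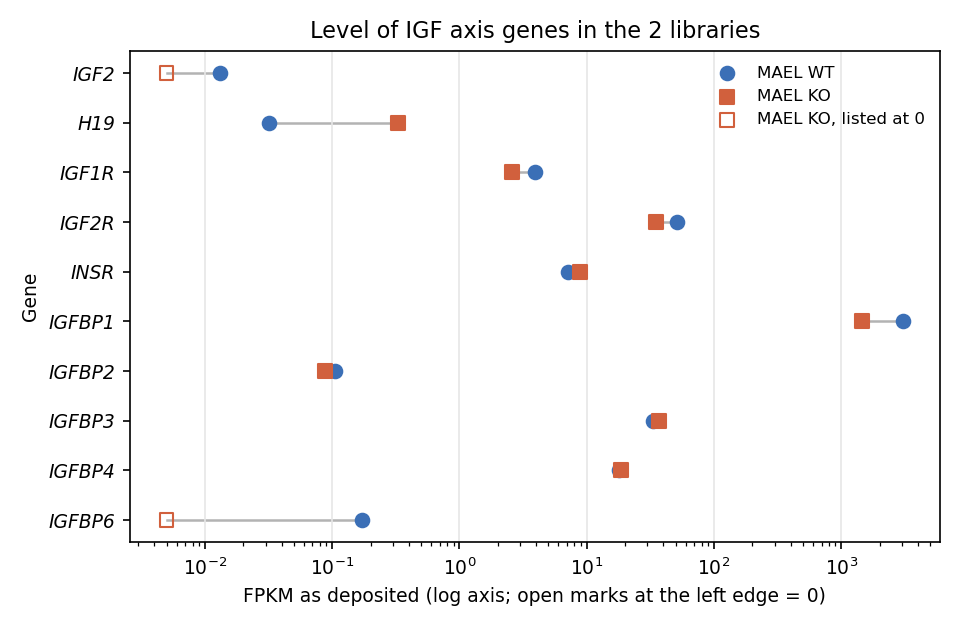
Level of each IGF axis gene as deposited FPKM (log axis) in the MAEL WT library (circles) and the MAEL KO library (squares), 1 library each, with open squares at the left edge for genes listed at 0. IGFBP1 lies far to the right at 3051 and 1466 FPKM, while IGF2, H19, IGFBP2 and IGFBP6 lie below 1 FPKM in both libraries.

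Of the other binding proteins, IGFBP3 and IGFBP4 were well counted and near the middle of all genes. IGFBP3, the main carrier of IGFs in blood, had 3323 counts in MAEL WT and 3189 in MAEL KO, a log2 change of 0.15 (95% interval 0.08 to 0.22), which turned to -0.13 when only total counts were used for scaling. IGFBP4 had 868 and 780 counts, a log2 change of 0.06 (95% interval -0.09 to 0.20), or -0.22 with total counts. Neither direction therefore held across scalings. That scaling moved the median of all tested genes by -0.27.

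IGFBP2 and IGFBP6 were close to the limit of detection. IGFBP2, a binding protein of fetal serum, had 11 and 8 counts, a log2 change of -0.23 with an interval from -1.77 to 1.2, so no difference was detectable at this depth. IGFBP6, which prefers IGF2 over IGF1, had 5 counts in MAEL WT and 0 in MAEL KO, under the minimum for testing. The 95% counting interval of its ratio of MAEL KO to MAEL WT ran from 0 to 1.26, which includes no change. The other 2 genes of the numbered family were also low, with 6 and 1 counts for IGFBP5 and 11 and 4 for IGFBP7, and 18.9% of the exon bases of IGFBP7 are also exon of another gene, mostly the well-counted POLR2B on the opposite strand.

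Set against gene length, the pool of IGFBP transcripts was almost wholly IGFBP1 in both libraries. Of the summed FPKM of IGFBP1 to IGFBP7, IGFBP1 took 98.3% in MAEL WT and 96.3% in MAEL KO. IGFBP3 took 1.07% and 2.42%, and IGFBP4 0.581% and 1.23%. The sum was 3103 FPKM in MAEL WT and 1522 in MAEL KO, whereas without IGFBP1 it was 51.9 and 55.7.

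IGFBP1 and IGFBP3 are neighbours on chromosome 7 that point towards each other with 18.6 kb between their ends, and they differed in fold change. Within a library, the count of IGFBP3 was 0.0301 times that of IGFBP1 in MAEL WT and 0.0694 times in MAEL KO. The log2 change of this ratio was 1.2 (95% counting interval 1.13 to 1.28), a value that involves no scaling between libraries. Further out, within 500 kb, 5 other genes were tested, with a median log2 fold change of 0.80. Of these 1 was above 2 and 0 below -2, beside 2.16% and 5.64% of all tested genes. Before IGFBP1 lay, from the nearest outwards, GTF2IP13 (138 and 208 counts, 0.80), SEPT7P2 (365 and 317, 0.01) and ADCY1 (282 and 99, -1.29). After IGFBP3 lay AC073115.2 (9 and 32 counts, 1.92) and AC073115.1 (2 and 30, 3.54). Both reached 10 counts only in MAEL KO, so they had to differ between the libraries.

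The receptors split: IGF1R and IGF2R were lower in MAEL KO and INSR was higher. IGF2R, the lysosomal scavenger of IGF2, was the receptor with the highest level, with 19907 counts in MAEL WT and 11913 in MAEL KO, or 51.0 and 35.2 FPKM. Its log2 fold change was -0.53 (95% interval -0.56 to -0.50). IGF1R, the signalling receptor, had 1195 and 683 counts (3.92 and 2.58 FPKM), a log2 change of -0.60 (95% interval -0.73 to -0.46). INSR had 1635 and 1767 counts (7.15 and 8.92 FPKM), a log2 change of 0.32 (95% interval 0.22 to 0.42), which shrank to 0.05 with total counts. In GRCh38, IGF2R spans bases 159969099 to 160113507 of chromosome 6, IGF1R bases 98648539 to 98964530 of chromosome 15 and INSR bases 7112255 to 7294034 of chromosome 19, and none shares exon bases with another listed gene. None passed 2 in either direction, and 26.3% of tested genes lay below IGF1R, 28.5% below IGF2R and 32.0% above INSR.

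Ratios within a library involve no scaling between libraries, but they show only relative change, not whether INSR itself rose. Per length, the level of IGF1R was 0.548 times that of INSR in MAEL WT and 0.290 times in MAEL KO. In counts the log2 change of this ratio was -0.92 (95% counting interval -1.09 to -0.75). The ratio of IGF1R to IGF2R was 0.0600 in counts in MAEL WT and 0.0573 in MAEL KO, a log2 change of -0.07 with an interval from -0.21 to 0.07, which includes no change. In both libraries the order of the receptors per length was IGF2R, then INSR, then IGF1R.

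**Figure D3:**
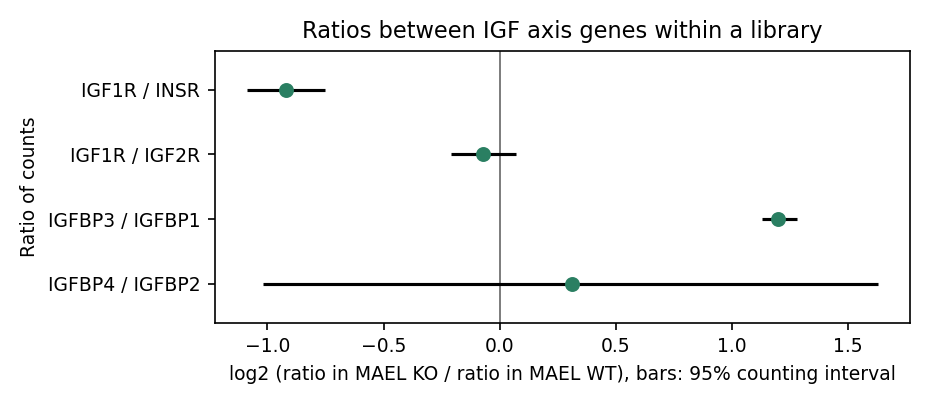
Log2 change, from the MAEL WT to the MAEL KO library, of the ratio of counts between pairs of IGF axis genes, with 95% counting intervals as bars. IGF1R to INSR lies at -0.92 and IGFBP3 to IGFBP1 at 1.2, both with intervals clear of 0, while the intervals of IGF1R to IGF2R and of IGFBP4 to IGFBP2 take in 0.

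The ligand IGF2 was hardly counted, and the table could undercount it. IGF2 (ENSG00000167244, on GRCh38 chromosome 11, minus strand, bases 2129112 to 2149603) had 2 counts in MAEL WT and 0 in MAEL KO. Both were at or under the floor, so no fold change is given. The second IGF2 entry (ENSG00000284779), from 2129112 to 2158658, had 0 counts in both. In GENCODE 29, 5235 of the 6979 exon bases of the first entry (75%) are also exon of another gene, 5144 of them of the second entry, and INS-IGF2, IGF2-AS and AC132217.1 share further bases. How reads on shared exons were counted is not given in the sources used here, and a counter that drops them would leave 1744 bases of IGF2 to count. The overlapping genes all had 0 counts in both libraries, as did INS.

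H19, the long non-coding RNA next to IGF2 on chromosome 11 from 1995176 to 2001470, was the only member past the threshold. It had 2 counts in MAEL WT and 18 in MAEL KO, a log2 change of 2.83 with 1 added to the normalized counts. The ratio without an added count was 10.4, with a 95% counting interval from 2.49 to 92.5. H19 entered the tested genes only through its count in MAEL KO, so it had to differ between the libraries, and at 0.0316 and 0.328 FPKM its level was low in both. Only 7.35% of its exon bases are shared, and MIR675, the microRNA gene inside it, had 0 counts in both libraries.

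The other ligands and IGF proteins were at or near 0. IGF1 had 1 count in each library, and 82.4% of its exon bases are also exon of HELLPAR, a long non-coding RNA on the opposite strand with 64 and 125 counts. IGFALS, the acid-labile subunit that joins IGF and IGFBP3 in the circulating complex, had 14 and 12 counts, a log2 change of -0.01 (95% interval -1.25 to 1.21). IGFBPL1 had 11 and 2 counts, a log2 change of -1.83 with an interval of -5.46 to -0.05, and the receptor-like INSRR had 3 and 0. Of 9 such genes 3 were tested, and none passed the threshold, beside 7.80% of all tested genes.

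Of the genes that act on the binding proteins, 5 of 6 tested were below 0, as were 9294 of all 17887 tested genes, and the other was HTRA1 (6 and 14 counts, 1.29), named after its values were seen. The list named 13 proteases and inhibitors, and the median of those tested was -0.97. Of these 1 was below -2 and none above 2, beside 5.64% and 2.16% of all tested genes. STC2, a secreted inhibitor of the IGFBP proteases PAPPA and PAPPA2, had 6244 counts in MAEL WT and 1686 in MAEL KO, a log2 change of -1.68 (95% interval -1.76 to -1.60). Its targets, named here after their values had been seen, had few counts: PAPPA had 8 and 3, and PAPPA2 had 17 and 5. PRSS23, a secreted serine protease whose action on IGFBPs is not settled, fell from 1171 to 224 counts, a log2 change of -2.17. CTSD, the lysosomal protease cathepsin D, had 3128 and 1857 counts, a log2 change of -0.54.

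Of 27 adaptors and regulators of IGF1R and INSR, 25 were tested. None passed 2 or -2, beside 7.80% of all tested genes. Of the 25, 16 were below 0, as were 9294 of all 17887 tested genes, and the median was -0.37. FURIN, the convertase that cuts the receptor precursors, had 17024 and 14431 counts, a log2 change of -0.03. SHC1 had 10016 and 5358 (-0.69), and DOK4 had 3975 and 5004 (0.54). The main substrates of the receptors, chosen here after their values had been seen, lay on either side of 0: IRS1 had 1066 and 1709 counts, a log2 change of 0.89 (95% interval 0.78 to 1.00), and IRS2 had 2964 and 1672, a log2 change of -0.62 (95% interval -0.70 to -0.53).

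In the PI3K-AKT-mTOR-FOXO chain 36 of 38 genes were tested, with a median of -0.14, against -0.04 for all tested genes. Of the 36, 2 were below -2 and none above 2, beside 5.64% and 2.16% of all tested genes. TRIB3, a pseudokinase that binds AKT, fell from 5602 to 1183 counts, a log2 change of -2.03 (95% interval -2.12 to -1.94). Among the most counted genes, DDIT4, an inhibitor of mTOR complex signalling, had 7417 and 2398 counts (-1.42), and EIF4EBP1, a repressor of translation that mTOR phosphorylates, had 6685 and 1970 (-1.55). AKT1 had 3241 and 3895 counts, a log2 change of 0.48. The PI3K genes tested all stayed within 1 of 0 on the log2 scale, with TMM factors and with total counts.

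Genes known to respond to insulin in liver did not share a direction. IGFBP1, G6PC and PCK1 are all genes that insulin represses through FOXO factors, and their values differed in sign. G6PC, the glucose-6-phosphatase of gluconeogenesis, rose from 26 to 1671 counts (6.16) and PCK1 from 7 to 54 (2.98), against -1.05 for IGFBP1. TXNIP, an arrestin-like brake on glucose uptake, fell from 636 to 119 counts, a log2 change of -2.20. FASN, the fatty acid synthase that insulin induces, had 18283 and 30060 counts (0.93), SREBF1 had 3456 and 2691 (-0.15) and TRIB1 had 989 and 729 (-0.23). In all, 11 of 13 were tested, with a median of 0.13, or -0.14 with total counts. Among the 11, 2 were above 2 and 1 below -2, beside 2.16% and 5.64% of all tested genes. PCK1, which was above 2, reached the minimum count for testing only in MAEL KO, so it had to differ between the libraries.

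Transcripts of proteins that bind the IGF2 message were well counted, whereas IGF2 itself was not. IGF2BP1, an oncofetal RNA-binding protein, had 4303 counts in MAEL WT and 5911 in MAEL KO, a log2 change of 0.67 (95% interval 0.61 to 0.73). LIN28B, which blocks let-7 maturation, had 3161 and 4312 (0.66), and IGF2BP2 had 3731 and 2340 (-0.46). All 6 genes of this list were tested and none passed the threshold, beside 7.80% of all tested genes. The median was 0.31, or 0.03 with total counts.

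Factors that keep the IGF2-H19 imprint or act on its promoters had 10 of 11 tested genes above 0, beside 8593 of all 17887 tested genes. Their median was 0.60, or 0.32 with total counts (9 of 11 above 0). UHRF1, which brings DNMT1 to newly copied DNA, rose from 486 to 1913 counts, a log2 change of 2.18, or 1.91 with total counts. DNMT1, the maintenance DNA methyltransferase, had 2018 and 4034 counts (1.21), and TRIM28, a co-repressor at imprinted loci, had 6072 and 9574 (0.87). CTCF, the insulator protein that binds between IGF2 and H19 and is named here after its value was seen, had 981 and 1284 counts (0.60). Of other imprinted genes 17 of 25 were tested, with a median of -0.73. Of the 17, 14 were below 0 (9294 of 17887 over all tested genes) and 1 was below -2, beside 5.64% of all tested genes. CDKN1C, the cell cycle inhibitor on the same arm of chromosome 11, fell from 44 to 2 counts, a ratio of 0.0526 with an interval of 0.00618 to 0.202. CDKN1C was the gene below -2, and it reached 10 counts only in MAEL WT, so it had to differ between the libraries. GNAS had 17422 and 12987 counts (-0.21), PEG10 had 3467 and 10697 (1.84) and SGCE had 1744 and 1426 (-0.08).

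**Figure D4:**
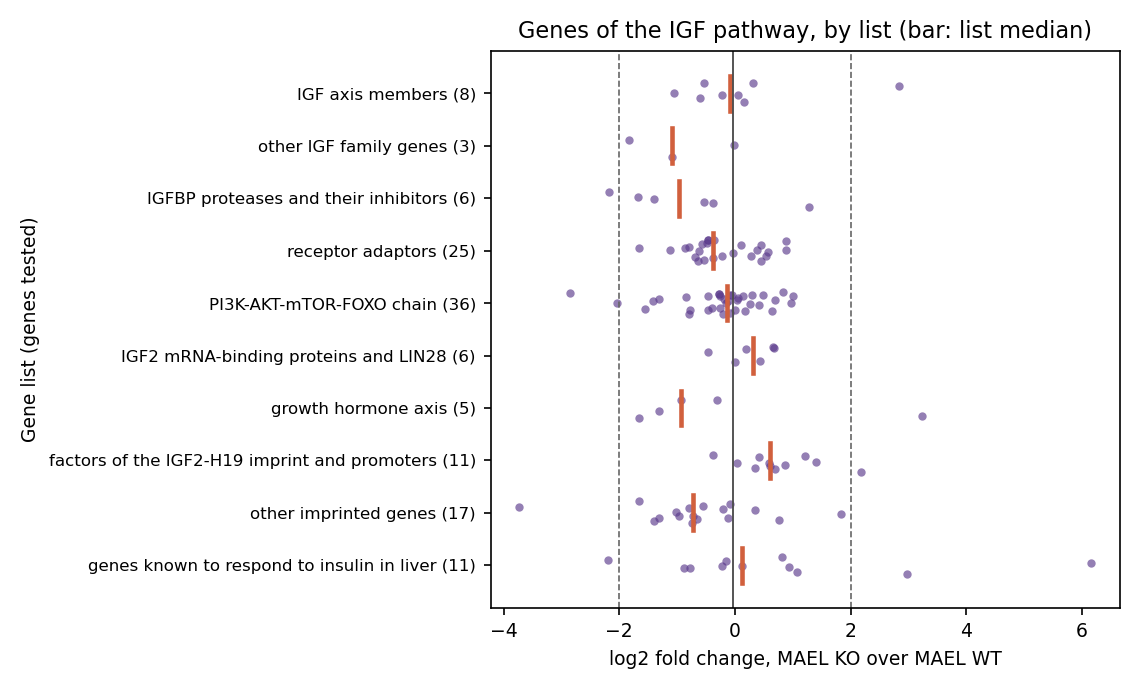
Log2 fold change of MAEL KO over MAEL WT for every tested gene of the IGF axis and of 9 lists of pathway genes, 1 point a gene, with short bars at the list medians, a vertical line at the median of all tested genes (-0.04) and dashed lines at 2 and -2. G6PC at 6.16 and CDKN1C at -3.73 lie farthest from 0, and most adaptors and kinase-chain genes lie within 1 of it.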

How the data were processed

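RNA of 2 cultures was sequenced on a HiSeq platform, 1 library a group. The authors deposited whole-number read counts per gene without normalization, and FPKM values, which the authors computed per listed gene length and a rescaled library size. The submitters' processing notes name HISAT2 2.0.5, featureCounts 1.5.0-p3 and hg19, whereas all 58735 identifiers are in GENCODE 29 and 58724 have its GRCh38 start and end. Strand and multi-gene settings are not given in the sources used here.

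Counts were normalized by TMM (edgeR 4.0.16, R 4.3.3) and put on the scale of the mean effective size. DESeq2 1.42.0 gave other size factors. Log2 fold changes (called log2 changes where short) add 1 to normalized counts. A gene was tested, by fold alone, with 10 or more counts in either library. A gene that reached 10 counts in only 1 library had to differ between them. Genes named above of this kind include PCK1, CDKN1C, HTRA1, PAPPA2, KRT7, KRT19 and CDH5. The threshold of 2 is the study's, used by fold alone. The 95% intervals are Clopper-Pearson (exact) on the share of a gene's counts found in MAEL KO, with no added count, and cover counting error only. Those of ratios use a normal approximation. Levels of different genes are compared by FPKM. Steps used Python 3.11.15, NumPy 2.4.6, SciPy 1.17.1, pandas 2.3.3 and matplotlib 3.10.9 and were tested on simulated data.

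The members and lists were chosen with earlier results of these data known. Genes named from a list are those past the threshold (at most 4 a direction), the 3 most counted, and those said to be chosen later. Up to 3 tested neighbours a side are named. In the list of other IGF genes all may be named. Alternatives were other size factors, total counts, the FPKM ratio with 0.01 added, 0.1 or 5 added to counts, a filter of any count or of a mean of 100, only protein-coding genes, and a threshold of 1. Promoter windows are from RefSeq. The values of 1 gene past the threshold are not reported here.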

Additional observations from a re-analysis of the deposited data

How the results depend on the processing

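No paired analysis was possible because each group has 1 library, and for the same reason no library could be left out. The fold changes of IGF1R, IGF2R, IGFBP1, IGFBP2 and INSR kept their direction under every scaling, while IGFBP3 and IGFBP4 turned negative with total counts. Of 147 genes on the lists, 14 changed sign with total counts and 0 with DESeq2 size factors or the FPKM ratio. Those 2 settings gave values close to the TMM ones (-1.06 with each for IGFBP1, against -1.05). There were also 0 sign changes with 0.1 or 5 added. This was fixed in advance, because the same amount is added to both normalized counts. The count of genes past the threshold over the whole table was 387 higher and 1008 lower. It was 269 and 1309 with total counts, 250 and 513 with 5 added, 1029 and 1773 with any count, 160 and 200 with a mean of at least 100 counts. The share of higher genes was 27.7%, against 17.0%, 32.8%, 36.7% and 44.4%.

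H19 was between 1.83 and 3.31 over the scalings and added counts. With 5 added, H19 fell to 1.83 and 0 members passed 2, so this call depends on the added count. With a mean of at least 100 counts, or among protein-coding genes, 0 members passed 2, because these filters leave H19 out. With any count IGFBP6 was 1 member below -2. At a threshold of 1, the numbers lower were 1 of 8 tested members, 2 of 3 other IGF genes and 3 of 6 proteases. They were 2 of 25 adaptors, 5 of 36 kinase-chain genes, 2 of 5 growth hormone genes and 5 of 17 other imprinted genes. The numbers higher were 1 of 6 proteases, 3 of 11 imprint factors and 1 of 17 other imprinted genes. Of all tested genes 16.5% were below -1 and 10.2% above 1. For other IGF genes 1 was lower with total counts, the FPKM ratio or 0.1 added. With total counts the median was -0.65 for adaptors and -0.41 for the kinase chain, and 0 imprint factors were above 2. With any count 1 adaptor was higher and 3 other imprinted genes were lower. With 5 added or a mean of at least 100 counts, 1 gene of the kinase chain was lower. With that mean, 0 growth hormone genes were higher, 0 other imprinted genes lower and 1 insulin-responsive gene higher. By counts not divided by length, IGFBP1 took 96.3% and 92.0% of the IGFBP sum, IGFBP3 2.90% and 6.39%, and IGFBP4 0.758% and 1.56%. The cause of other changes was not tested.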

Other observations

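Genes of the growth hormone axis, which drives IGF1 in liver, had 4 of 5 tested members below 0, beside 9294 of all 17887 tested genes. The list named 8 genes, and the median of those tested was -0.93. Of these 1 was above 2 and none below -2, beside 2.16% and 5.64% of all tested genes. GHR, the growth hormone receptor, named after its values were seen, had 4 and 3 counts. SOCS2, a feedback inhibitor of growth hormone signalling, had 915 counts in MAEL WT and 249 in MAEL KO, a log2 fold change of -1.66 (95% counting interval -1.88 to -1.46). STAT5B had 1378 and 958 counts (-0.31) and JAK2 had 98 and 44 (-0.93). GHRHR, the receptor for growth hormone-releasing hormone, went from 2 to 24 counts, a ratio of 13.9 with an interval of 3.45 to 121.

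Within 500 kb of IGF2 and H19, 14 other genes were tested, with a median log2 fold change of -0.56. Of these 1 was above 2 and 3 were below -2, beside 2.16% and 5.64% of all tested genes. The nearest before H19 were LINC01219 with 12 and 4 counts, MRPL23-AS1 with 11 and 2, and MRPL23 with 722 and 560, and the nearest after IGF2 were CD81 with 1955 and 1961, TSSC4 with 1100 and 668, and KCNQ1OT1, the imprinted antisense RNA, with 130 and 103. LINC01219 and MRPL23-AS1 reached 10 counts only in MAEL WT, and H19 only in MAEL KO. The intervals of LINC01219 (-3.46 to 0.35) and MRPL23 (-0.32 to 0.01) include no change. The neighbour above 2 was SYT8, before H19, with 1 and 12 counts (2.85). Those below -2 were KRTAP5-AS1 (24 and 3 counts), KRTAP5-1 (22 and 3) and AC068580.1 (25 and 2). SYT8 reached 10 counts only in MAEL KO and these 3 only in MAEL WT, so all had to differ between the libraries. Within 500 kb of IGFBP2 and IGFBP5, 6 other genes were tested, with a median of 1.21. Of these 2 were above 2 and 0 below -2, beside 2.16% and 5.64% of all tested genes. The nearest was RPL37A, a ribosomal protein gene, with 12774 and 19659 counts (0.83), beside 11 and 8 counts for IGFBP2.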
